A study of Rattus norvegicus with 10 samples.

Results

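The Egr family and the Nab corepressors were taken as 6 genes by name, Egr1, Egr2, Egr3, Egr4, Nab1 and Nab2, out of 17168 gene symbols in the tables. All 6 passed the filter on low counts, which left 11791 genes. Hippocampal RNA (left side) came from 10 female rats of the TgF344-AD strain (TgF-344AD in the sample labels), all killed at 11 months of age after perfusion under ketamine and xylazine. The untreated group (n = 5) ate ordinary rodent chow, and the RG2833 group (n = 5) ate chow with 750 mg RG2833 per kg for 6 months from 5 months of age. RG2833 is labelled as an inhibitor of the histone deacetylases HDAC1 and HDAC3. All 10 animals carried the transgenes of this Alzheimer's disease model, which are human mutant amyloid precursor protein and human mutant presenilin 1 under a prion promoter, and no animal without them was compared. A food dye told the chows apart, and the labels do not say which chow held it.

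Egr1 to Egr4 encode transcription factors with C2H2 zinc fingers that bind GC-rich sites in promoters. They are immediate-early genes: in hippocampal neurons their transcription starts within minutes of synaptic activity, through kinase signalling to serum response factor with its Elk partners and to CREB. Nab1 and Nab2 bind a repression domain of Egr1, Egr2 and Egr3 and hold back activation of target genes, and Nab2 is itself induced by Egr proteins, so the pair forms a feedback loop. Nab2 can recruit the NuRD complex, which contains HDAC1 and HDAC2.

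Promoter sequences were available for 5 of the 6 genes (RefSeq, build GRCr8) and are shown because the binding sites for serum response factor and CREB lie close to the start of the Egr genes. The 250 bases before the annotated transcription start are given 5′ to 3′ on the strand of the gene. Capitals mark matches to the CArG box (the site of serum response factor), to TGACG (the core of the cAMP response element bound by CREB), to GCGNGGGCG (the Egr site) and to GTGGGCG (the end of the Egr site, which overlaps it), on either strand. Egr1 was read from chr18:26736828-26737077 on the plus strand, Egr2 from chr20:21054442-21054691 on the minus strand, Egr4 from chr4:119607818-119608067 on the minus strand, Nab1 from chr9:56545392-56545641 on the plus strand and Nab2 from chr7:65389256-65389505 on the minus strand.
Egr1: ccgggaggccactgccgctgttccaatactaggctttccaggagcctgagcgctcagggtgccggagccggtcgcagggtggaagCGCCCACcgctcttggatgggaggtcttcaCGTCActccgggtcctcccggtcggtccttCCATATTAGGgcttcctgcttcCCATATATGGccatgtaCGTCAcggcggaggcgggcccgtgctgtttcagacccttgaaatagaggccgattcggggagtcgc
Egr2: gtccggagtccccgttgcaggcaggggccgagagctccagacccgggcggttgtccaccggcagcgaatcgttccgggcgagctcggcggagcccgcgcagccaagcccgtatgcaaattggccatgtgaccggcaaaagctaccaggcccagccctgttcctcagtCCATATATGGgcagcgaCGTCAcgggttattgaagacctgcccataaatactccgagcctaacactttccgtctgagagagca
Egr4: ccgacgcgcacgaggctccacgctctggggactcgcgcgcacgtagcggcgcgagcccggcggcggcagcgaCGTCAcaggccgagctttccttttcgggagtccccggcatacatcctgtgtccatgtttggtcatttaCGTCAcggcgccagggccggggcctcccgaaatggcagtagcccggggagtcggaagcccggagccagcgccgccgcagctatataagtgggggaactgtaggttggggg
Nab1: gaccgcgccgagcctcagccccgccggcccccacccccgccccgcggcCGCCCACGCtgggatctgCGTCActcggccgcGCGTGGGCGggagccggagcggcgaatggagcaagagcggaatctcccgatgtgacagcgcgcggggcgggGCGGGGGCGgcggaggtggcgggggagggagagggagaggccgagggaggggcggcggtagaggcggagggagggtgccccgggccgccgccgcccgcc
Nab2: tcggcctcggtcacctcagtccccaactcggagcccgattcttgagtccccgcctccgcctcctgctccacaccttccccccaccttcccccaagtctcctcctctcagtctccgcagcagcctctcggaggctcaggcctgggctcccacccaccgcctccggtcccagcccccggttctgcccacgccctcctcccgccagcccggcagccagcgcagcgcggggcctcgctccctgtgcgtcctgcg

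A CArG box was found in 1.497% of the 33469 promoter windows of this length. The Egr1 window held 2 of them, at positions -105 to -96 and -83 to -74 from the start, and the Egr2 window held 1, also at -83 to -74 and with the same letters, CCATATATGG. In both genes TGACG stood on the minus strand at -66 to -62, so this pair of motifs had the same spacing and the same distance to the start in Egr1 and Egr2. TGACG was found in 18.2% of all windows. It occurred at 2 places in the Egr1 window, 1 in Egr2, 2 in Egr4 and 1 in Nab1. The complete element TGACGTCA was found in none of the 5 windows and in 1.59% of all windows. The Egr4 window held no CArG box by these letters.

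The Egr site GCGNGGGCG was found in 4.29% of all windows and at 3 places in the Nab1 window, at -202 to -194, -170 to -162 and -99 to -91. GTGGGCG, found in 6.27% of all windows, occurred once outside a complete Egr site, in the Egr1 window at -165 to -159. The GC box GGGCGG was found in 30.5% of all windows. It occurred at 8 places in the Nab1 window, some of them overlapping the Egr sites, and at 1 in the Egr2 window, at -206 to -201. The Nab1 window was 81.2% G and C, against a median of 51.2% over all windows. The Nab2 window held none of the motifs searched. A match describes letters in the reference and no binding was measured.

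The libraries held 8764266 to 11311673 estimated counts. Ribosomal RNA loci took 2.70% to 5.36% of the counts in untreated animals and 1.13% to 1.96% in RG2833 animals, so this share divided the animals exactly as the treatment did, and share and treatment cannot be told apart. Of the markers of excitatory neurons, 5 of 6 were in the table and none of these was at 0. Their summed level was 2222 to 3575 CPM in untreated and 3887 to 4815 CPM in RG2833 animals, without overlap. Of the 5, 1 was called higher, Nptx1, which kept its call in 3 of the 10 fits that left out 1 animal. The mean score of the 5 markers was 0.59 higher on the log2 scale in RG2833 animals (two-sided exact permutation test, p = 0.0317), and untreated replicate 4 lay within the RG2833 range. Markers of the dentate gyrus (2 of 3 listed) and of CA1 (3 of 3) were present, as the labelled tissue requires, and the 2 dentate markers were 0.51 and 0.52 higher in log2 in RG2833 animals without being called. The CA1 markers Wfs1, Mpped1 and Fibcd1 had log2 fold changes of 1.04 (SE 0.67), 0.15 and -0.05, also without being called. Of other cell types, 5 of 5 endothelial markers (median log2 fold change -0.30), 3 of 3 oligodendrocyte precursor markers (-0.26) and 5 of 6 microglial markers (-0.20) were below 0, and 1 of these, the microglial Aif1, was called lower (-0.74, edgeR adjusted p = 0.0496). Aif1 was called in 2 of the 10 fits that left out 1 animal. Above 0 were 1 of 6 interneuron markers (median -0.15), 5 of 5 oligodendrocyte markers (0.07) and 3 of 5 astrocyte markers (0.02), with none called. The part of these cell types in the results below was not tested. Choroid plexus markers summed to 4.84 to 2450 CPM in untreated and 4.70 to 46.3 CPM in RG2833 animals. Untreated replicate 1 had a choroid plexus score of 5.43, against 1.08 or less in every other animal. Without it the 2 tested markers had log2 fold changes of -0.17 and 0.74, in place of -5.10 and -1.81. On the first principal component (35.7% of the variance) untreated replicate 4 likewise fell within the RG2833 range, so values without it are given below for Egr1, Egr3, Nab2, the ratios and the lists. Because this animal was picked for its likeness to the RG2833 group, leaving it out tends to widen the group difference. Values without it are a description and not further support.

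Egr1, Egr3 and Egr4 were about 2-fold higher in the RG2833 animals, with no overlap between the groups. Egr2 had a change of like size that did not pass, and neither Nab gene was called. A gene counts as called where edgeR's quasi-likelihood test, with Benjamini-Hochberg adjustment over all genes, gave an adjusted p under 0.05. Of the 6 genes 3 were called, all higher, where 2.41% of all tested genes were called higher, 2.67% lower and 5.08% in either direction. In 3 of the 6 the groups did not overlap, all with higher RG2833 values, against 3.8% of all tested genes in that direction and 7.27% in either. Levels below are the deposited TMM-scaled CPM (CPM is a count relative to its library total, and TMM, the trimmed mean of M values, scales libraries as if most genes were equal). They are not divided by gene length and are therefore not compared between genes.

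Egr1 (zif268, the member most used as a marker of neuronal activity and needed for lasting forms of synaptic plasticity) was 47.9, 49.2, 34.2, 89.9 and 43.5 CPM in untreated replicates 1 to 5 and 111, 130, 137, 117 and 102 CPM in RG2833 replicates 1 to 5. Every RG2833 animal was above every untreated animal, and untreated replicate 4 stood apart from the other 4 untreated animals, toward the RG2833 values. The means were 52.9 ± 21.5 and 119 ± 14.0 CPM (SD, n = 5 each). The log2 fold change was 1.18 ± 0.21 (SE; 95% interval 0.73 to 1.62; edgeR adjusted p = 0.0138), a 2.26-fold difference, and it ranked 16 from the top among the 11791 genes. It was 1.45 without untreated replicate 4 (edgeR adjusted p = 0.000111), in a fit that called 1556 genes over all genes where 599 were called with all animals.

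Egr3, an activity-induced factor that acts in memory, was 14.8, 20.1, 15.3, 38.3 and 30.9 CPM in untreated animals and 44.1, 44.1, 46.2, 42.3 and 53.6 CPM in RG2833 animals. The highest untreated value lay just below the lowest RG2833 value, and untreated replicates 4 and 5 were well above the other 3. The log2 fold change was 0.95 ± 0.23 (SE; 95% interval 0.45 to 1.44; edgeR adjusted p = 0.0381). Of the 10 fits that each left out 1 animal, 2 kept this call, those without untreated replicate 4 (1.19 in log2, edgeR adjusted p = 0.00296) and without untreated replicate 5 (1.06, edgeR adjusted p = 0.0261). These 2 fits called 1556 and 902 genes over all genes, where 599 were called with all animals. In the other 8 the adjusted p lay between 0.0656 (without RG2833 replicate 4) and 0.104 (without RG2833 replicate 5), with log2 fold changes of 0.81 to 0.97.

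Egr4, a member known mainly from neurons, was 17.6, 19.2, 14.99, 26.7 and 19.2 CPM in untreated animals and 36.5, 42.5, 33.5, 49.7 and 35.3 CPM in RG2833 animals. The groups were separate, with a gap between 26.7 and 33.5 CPM. The log2 fold change was 1.02 ± 0.15 (SE; 95% interval 0.69 to 1.35; edgeR adjusted p = 0.00724). Egr4 had the smallest p of the 6 genes and stood at rank 28 of all tested genes by p. Egr1 and Egr4 kept their calls whichever animal was left out, with log2 fold changes of 1.04 to 1.45 and 0.91 to 1.15.

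Egr2 (Krox20, the regulator of myelination in Schwann cells and also an activity-induced gene in neurons) had the lowest counts of the 6, with 18 to 35 estimated counts in untreated and 30 to 87 in RG2833 animals. Its level was 2.05, 3.49, 3.17, 2.80 and 3.28 CPM in untreated animals and 5.66, 6.06, 4.12, 8.98 and 3.12 CPM in RG2833 animals. RG2833 replicate 5 lay inside the untreated range, and the other 4 RG2833 animals lay above it. The log2 fold change was 0.91 ± 0.27 (SE; 95% interval 0.34 to 1.49), with an edgeR adjusted p of 0.0644 that did not pass. DESeq2's Wald test called it (log2 fold change 0.92, DESeq2 adjusted p = 0.0209). Differences in fold change among the 4 Egr genes were not tested, and their 95% intervals overlapped.

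**Figure D1:**
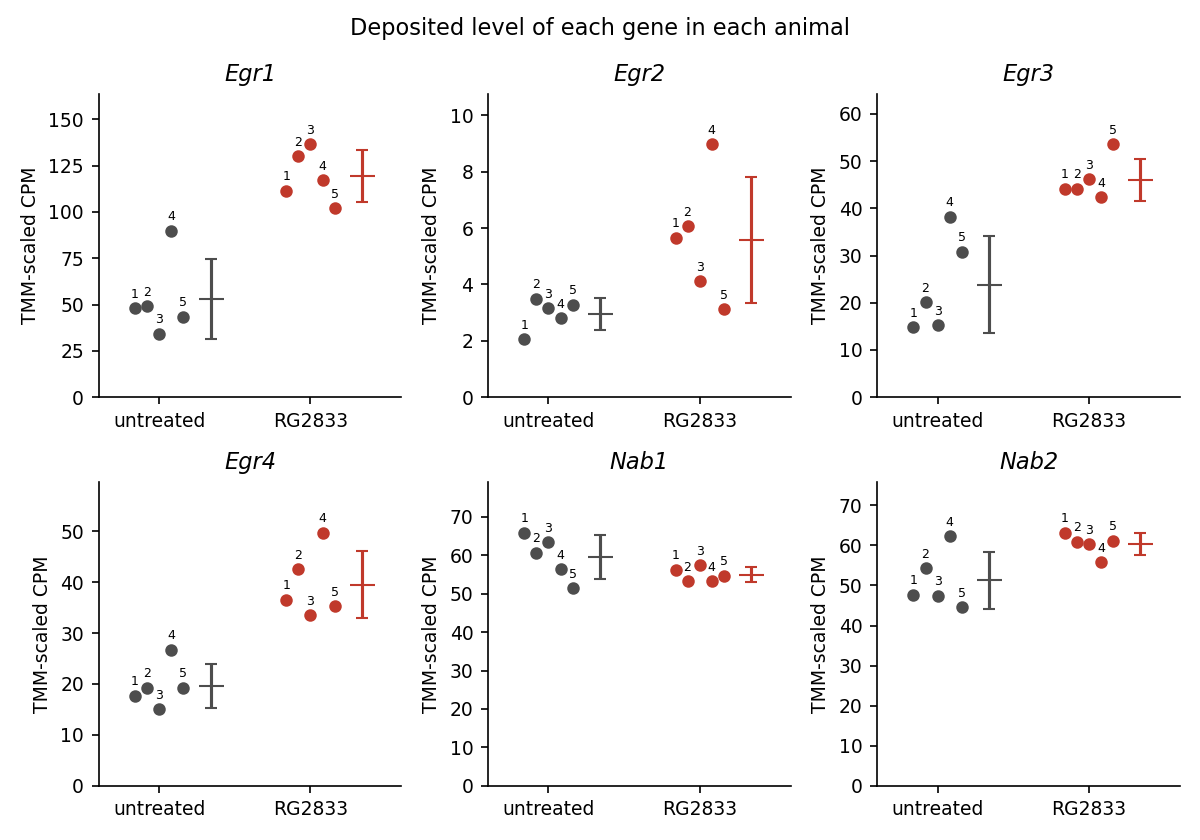
Deposited TMM-scaled CPM (y axis, linear and starting at 0, scaled per gene) of each of the 6 genes in each animal (points, numbered by replicate), with the group mean and SD beside the points (n = 5). Egr1, Egr3 and Egr4 do not overlap between the groups, whereas Egr2, Nab1 and Nab2 do.

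Nab2, the corepressor that Egr proteins induce, was 47.7, 54.3, 47.5, 62.2 and 44.6 CPM in untreated animals and 63.2, 60.9, 60.3, 55.8 and 61.2 CPM in RG2833 animals. Untreated replicate 4 was the exception in its group, above 4 of the 5 RG2833 animals, and the other 4 untreated animals lay below all RG2833 animals. The means were 51.3 ± 7.10 and 60.3 ± 2.72 CPM (SD, n = 5 each). The log2 fold change was 0.23 ± 0.09 (SE; 95% interval 0.04 to 0.43), which did not pass over all genes (edgeR adjusted p = 0.131). Without untreated replicate 4 it passed, at 0.31 (edgeR adjusted p = 0.0203), in a fit that called 1556 genes over all genes where 599 were called with all animals. In the other 9 fits that left out 1 animal it did not.

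Nab1, the corepressor that is present more constantly, was 65.9, 60.7, 63.5, 56.5 and 51.5 CPM in untreated animals and 56.3, 53.2, 57.4, 53.2 and 54.7 CPM in RG2833 animals. The RG2833 values lay within the untreated range. The log2 fold change was -0.11 ± 0.07 (SE; 95% interval -0.28 to 0.05; edgeR adjusted p = 0.367). The upper end of this interval corresponds to a 1.03-fold level and the lower end to 0.825-fold.

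The calls of Egr1, Egr3 and Egr4 ended when a library measure that differed between the groups entered the fit. With the excitatory neuron score as a covariate, the log2 fold changes were 0.70 ± 0.23 for Egr1, 0.46 ± 0.27 for Egr3 and 0.78 ± 0.21 for Egr4 (SE; edgeR adjusted p = 0.774, 0.925 and 0.774), and only 5 of all tested genes were called, where 599 had been. The fit with the ribosomal RNA share gave 0.60 ± 0.35, 0.28 ± 0.39 and 0.78 ± 0.30 (SE; edgeR adjusted p = 0.9999 each), with 2 genes called. Egr2 moved the other way, to 1.08 ± 0.42 and 1.45 ± 0.52 (SE), without passing (edgeR adjusted p = 0.817 and 0.9999). With a choroid plexus score in the fit Egr3 alone lost its call (log2 fold change 0.90, edgeR adjusted p = 0.0702). In tissue RNA, a different number of neurons and a different amount of transcript per neuron cannot be told apart.

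**Figure D2:**
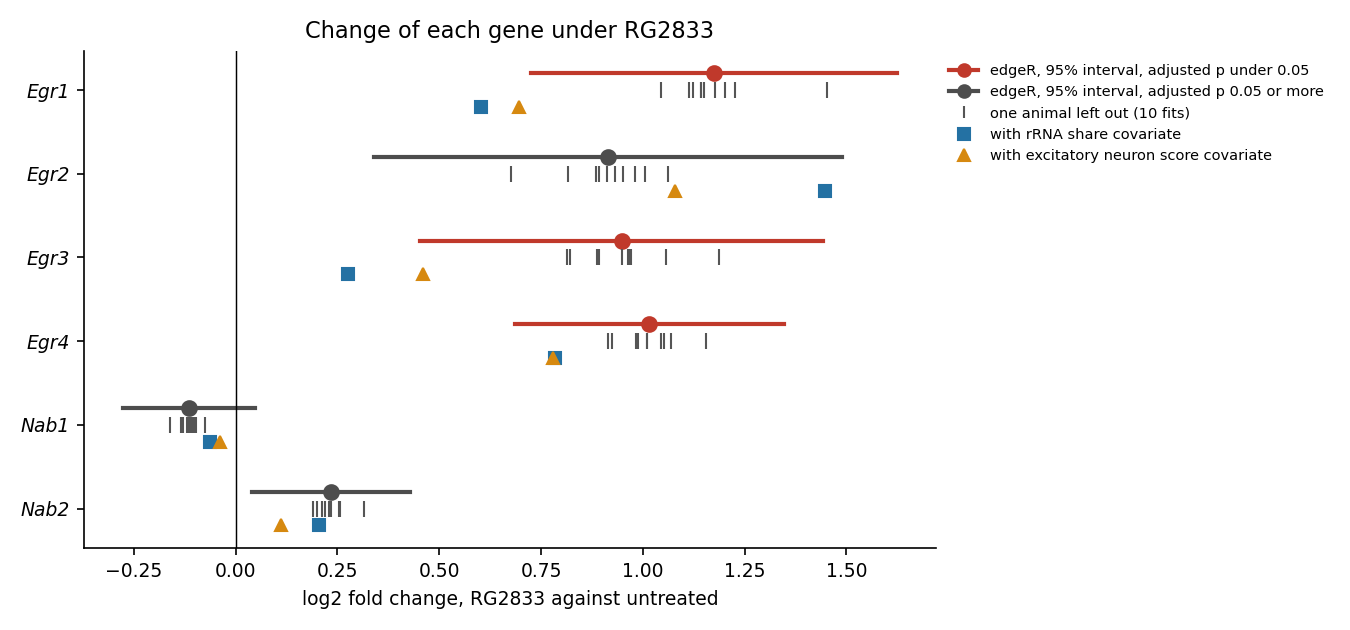
Log2 fold change of RG2833 against untreated (x axis) for the 6 genes (y axis), with circles and lines for the edgeR estimate and its 95% interval, ticks for the 10 fits that left out 1 animal, squares for the fit with the ribosomal RNA share and triangles for the fit with the excitatory neuron score. The Egr intervals all lie above 0, the covariate fits of Egr1, Egr3 and Egr4 lie nearer to 0 than the circles, and those of Egr2 lie farther out.

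Whether an Egr gene changed more than a Nab gene was tested on the log2 ratio of their CPM in each animal, for 4 Egr and 2 Nab genes (8 ratios). No library measure entered this test, so the ratios were not examined in the way that ended the calls of Egr1, Egr3 and Egr4. The 8 ratios share genes, and ratios of other genes were not tested. Since CPM is not per length, the difference in a ratio between groups is meaningful and the ratio itself is not. The Egr1 to Nab2 log2 ratio was 0.01, -0.14, -0.47, 0.53 and -0.03 in untreated replicates 1 to 5 and 0.82, 1.09, 1.18, 1.07 and 0.74 in RG2833 replicates 1 to 5. The groups did not overlap, and the difference was 1.00 (p = 0.00794 by a two-sided exact permutation test, the lowest possible with 5 against 5, and 0.0106 adjusted over the 8 ratios). Untreated replicate 4 again had the highest untreated value.

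The Egr4 to Nab2 log2 ratio was -1.42, -1.49, -1.65, -1.22 and -1.20 in untreated animals and -0.79, -0.52, -0.84, -0.17 and -0.79 in RG2833 animals, a difference of 0.78 with separate groups. Untreated replicate 4 lay within the untreated range here. The Egr3 to Nab2 ratio differed by 0.80, and its groups were separate by a narrow margin, from at most -0.53 to at least -0.52. Ratios to Nab1 differed by 1.35 for Egr1, 1.15 for Egr3 and 1.13 for Egr4, with separate groups. Each of these 5 ratios had the same p as Egr1 to Nab2 (exact permutation p = 0.00794, adjusted p = 0.0106).

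Egr2 differed from the other 3 Egr genes in that its ratios overlapped between the groups. Its log2 ratio to Nab1 was 0.92 higher with RG2833 (p = 0.0238 by exact permutation, 0.0272 adjusted). Its ratio to Nab2 was 0.57 higher and did not pass (exact permutation p = 0.0873, adjusted p = 0.0873). In RG2833 replicate 5 it was -4.21, close to the lowest untreated values of -4.41 and -4.38. Without that animal the difference was 0.75 and passed (exact permutation, adjusted p = 0.0272). Of the 10 analyses that left out 1 animal, 9 kept the Egr2 to Nab1 call and 8 the Egr3 to Nab2 call. The exceptions were untreated replicate 1 for the former (0.77, exact permutation, adjusted p = 0.0635) and RG2833 replicates 3 and 5 for the latter (0.80 and 0.75, exact permutation, adjusted p = 0.0544 and 0.0556). The same 7 ratios passed without untreated replicate 4, with differences of 1.58, 0.93, 1.37 and 1.27 for Egr1 to Egr4 against Nab1 and 1.14, 0.92 and 0.82 for Egr1, Egr3 and Egr4 against Nab2 (exact permutation, adjusted p = 0.0454 for Egr2 to Nab1 and 0.0106 for the others). Egr2 to Nab2 was then at 0.48 (exact permutation, adjusted p = 0.198).

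**Figure D3:**
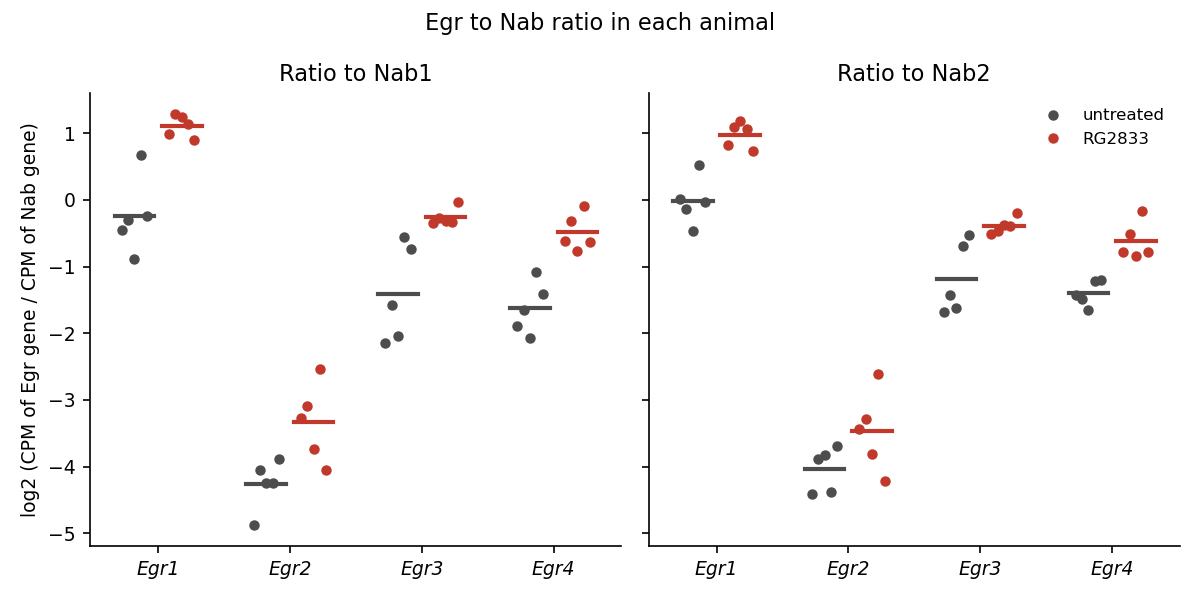
Log2 ratio of the CPM of each Egr gene (x axis) to that of Nab1 (left) and Nab2 (right) in each animal (points), with bars at the group means (n = 5). The RG2833 animals lie above the untreated animals for Egr1, Egr3 and Egr4, and the groups overlap for Egr2.

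The spread among the animals of a group differed between the genes. In untreated animals the SD was 40.6% of the mean for Egr1, 43.2% for Egr3, 22.2% for Egr4, 19.1% for Egr2, 13.8% for Nab2 and 9.66% for Nab1. In RG2833 animals it was 11.7% for Egr1, 9.62% for Egr3, 16.8% for Egr4, 40.0% for Egr2, 4.51% for Nab2 and 3.37% for Nab1. The spread was thus smaller in RG2833 animals for all of the genes except Egr2, a difference that was not tested. It was not particular to these genes, since over all genes the untreated libraries also differed more among themselves. Pairs of untreated libraries had a chi-square of 16.3 to 36.3 per degree of freedom, against 4.60 to 10.2 for pairs of RG2833 libraries. Without untreated replicate 4 the untreated spread was 15.6% for Egr1, 36.8% for Egr3, 11.3% for Egr4 (now below the RG2833 value) and 8.50% for Nab2.

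Covariation within groups was measured on log2 CPM from which each group's mean had been subtracted, over all 10 animals, for the 15 pairs of genes. None of the 15 pairs passed after adjustment (smallest adjusted exact permutation p = 0.362 for Pearson's r and 0.449 for Spearman's rho). At an unadjusted p under 0.05, 1 pair passed by r and 1 by rho. Egr1 and Egr4 had r = 0.73 (exact permutation p = 0.0469) and rho = 0.60 (exact permutation p = 0.0899). Without untreated replicates 3 and 4, the animals with the lowest and highest Egr1 of their group, r fell to 0.03, so the relation rested on those 2 animals.

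The other correlations of Egr1 were also lower without these 2 animals where they had been above 0.5. Egr1 and Nab2 had r = 0.76 and rho = 0.37 (exact permutation p = 0.0763 and 0.356), and r = 0.27 without them. Egr1 and Egr3 had r = 0.63 and rho = 0.30 (exact permutation p = 0.193 and 0.486), and r = -0.37 without them. In untreated replicate 4, Egr1, Egr3, Egr4 and Nab2 were above the mean of the group by 0.84, 0.78, 0.47 and 0.29 on the log2 scale, while Egr2 and Nab1 were at -0.06 and -0.08. Egr2 followed neither Egr1 (r = -0.03, exact permutation p = 0.922) nor Egr3 (r = -0.04, exact permutation p = 0.892). Its highest and lowest deviations, 0.75 and -0.71, were those of RG2833 replicates 4 and 5, and in replicate 4 Egr4 was also highest of its group, at 0.35.

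The correlations of Nab1 with Egr3 and Egr4 were below 0. Egr3 and Nab1 had r = -0.78 and rho = -0.78 (exact permutation p = 0.0836 and 0.0709), and r = -0.70 without untreated replicates 4 and 5. The deviations of Egr3 and Nab1 had the same sign in 0 of 5 untreated animals but in 4 of 5 RG2833 animals, so the negative relation was not seen in both groups. Egr4 and Nab1 had r = -0.55 and rho = -0.70 (exact permutation p = 0.170 and 0.0385, adjusted p = 0.362 and 0.449), and r = -0.55 without untreated replicate 4 and RG2833 replicate 4. With 1 animal left out this r ranged from -0.46 (without untreated replicate 3) to -0.83 (without untreated replicate 5). Nab1 and Nab2 did not follow each other (r = 0.02, rho = -0.03, exact permutation p = 0.965 and 0.947).

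The same deviations were compared with those of the excitatory neuron score, the ribosomal RNA share and the total count, in 18 relations that were added after the values were seen. None passed (smallest adjusted exact permutation p = 0.788 for r and 0.792 for rho). With the excitatory neuron score, r was 0.65 for Egr1 and 0.61 for Egr3 (rho = 0.39 and 0.62; exact permutation p = 0.183 and 0.242 for r, 0.308 and 0.135 for rho), and 0.22 and 0.25 without untreated replicates 2 and 4. Other relations grew. With the total count, leaving out untreated replicate 3 and RG2833 replicate 2 took r from 0.11 to 0.60 for Egr1 and 0.03 to 0.52 for Egr3. It went from 0.12 to 0.53 for Egr4 and 0.40 to 0.81 for Nab2. For Egr2 it went from 0.35 to 0.31 and for Nab1 from -0.07 to -0.24.

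**Figure D4:**
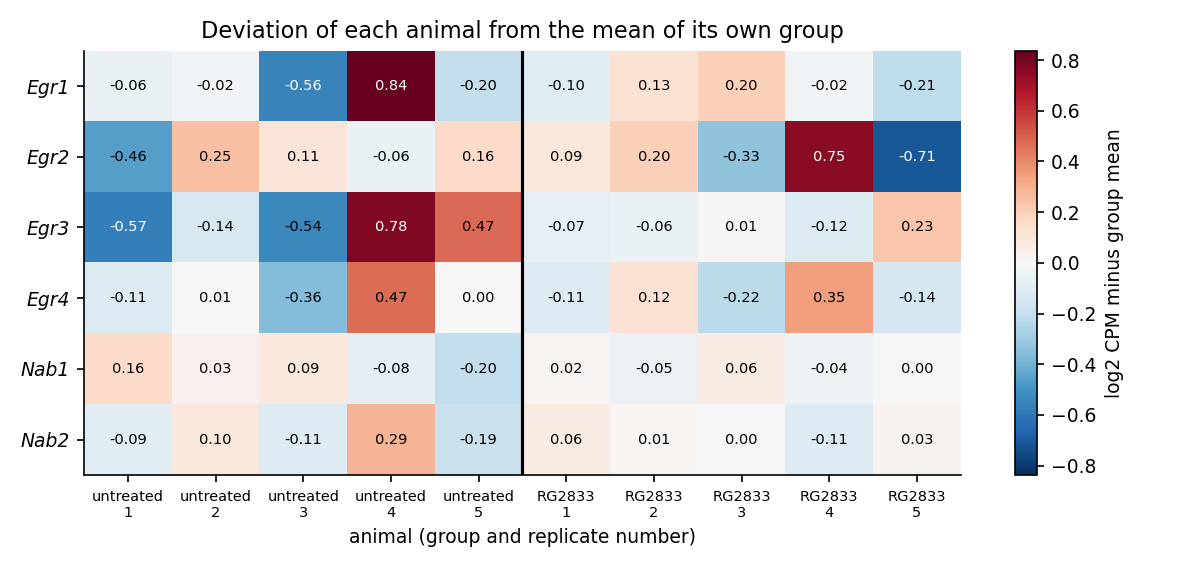
Deviation of each animal from the mean of its own group in log2 CPM (colour and printed value) for the 6 genes (rows) and 10 animals (columns, untreated left and RG2833 right of the line). Untreated replicate 4 is the highest of its group in Egr1, Egr3, Egr4 and Nab2, and RG2833 replicates 4 and 5 are the extremes of Egr2.

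The genes whose deviations were most like those of each member, out of 11199 genes with a mean log2 CPM of at least 1, are given as a description over 10 animals. For Egr1 they were Fam49b (r = 0.97), Arhgef2 (0.94) and Mmp23 (0.94). For Egr3 they were Peli1 (0.98), Abi2 (0.98) and Dpp6 (0.97), and for Egr4 they were Fam212a (0.94), Pars2 (0.90) and Acy3 (0.87). For Egr2 they were Map2k5 (0.92), Yae1d1 (0.90) and Kdelr1 (0.90). For Nab2 they were Cebpb (0.95), Limd2 (0.95) and Cebpd (0.94), of which Cebpb and Cebpd encode members of the C/EBP family of transcription factors. For Nab1 they were Lyrm1 (0.96), Dnajc15 (0.95) and Tmed1 (0.95). None of these 18 genes was called between the groups.

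Genes that act upstream of the Egr family were listed as 19, of which 17 were tested, and 1 was called, higher, where 5.08% of all tested genes were called and 2.41% were called higher. That gene was Crtc1, a CREB coactivator that moves to the nucleus with activity. Its mean level was 72.0 CPM (SD 13.7, n = 5) without and 109 CPM (SD 11.3, n = 5) with RG2833, which is 0.60 higher in log2 (SE 0.12, edgeR adjusted p = 0.0241). It was called in 5 of the 10 fits that left out 1 animal. Srf, which encodes serum response factor, had a log2 fold change of 0.29 ± 0.08 and Elk1, its partner phosphorylated by ERK kinases, 0.36 ± 0.12 (SE; edgeR adjusted p = 0.0644 and 0.0964). Creb1, at 4.12 ± 0.922 CPM in untreated animals, stood at -0.06 in log2 (SE 0.19, edgeR adjusted p = 0.878). The median log2 fold change over the 17 genes was 0.02, against -0.00347 over all tested genes. Without untreated replicate 4, 4 were called, all higher, in a fit that called 1556 of all 11849 tested genes, 810 of them higher.

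Of 20 genes reported as targets of Egr proteins in various tissues, all were tested, and 2 were called higher and 1 lower, against 2.41% and 2.67% of all tested genes. Arc, whose product removes AMPA receptors from synapses, rose by 1.05 on the log2 scale (SE 0.19, edgeR adjusted p = 0.0144), and was called whichever animal was left out. Syn1, which encodes the synaptic vesicle protein synapsin I, rose from a mean of 1193 CPM (SD 47.7) to 1565 CPM (SD 177) over 5 animals each (log2 difference 0.39, SE 0.08, edgeR adjusted p = 0.0260). Fn1, which encodes the matrix protein fibronectin, fell from a mean of 117 CPM (SD 21.7) to 82.6 CPM (SD 5.43) over 5 animals each (log2 difference -0.50, SE 0.11, edgeR adjusted p = 0.0284). Syn1 was called in 5 and Fn1 in 4 of the 10 fits. Cdk5r1, which encodes the Cdk5 activator p35, stood at 0.42 in log2 (SE 0.20, edgeR adjusted p = 0.215). Of the 20 genes, 15 had a log2 fold change above 0, against 49.4% of all tested genes, and the median was 0.22. In the fit with the ribosomal RNA share, 9 of the 20 were above 0 and the median was -0.05. With the other covariates the numbers were 15 for the excitatory neuron score (median 0.12), 15 for the choroid plexus score (0.25) and 12 for the surrogate variable (0.21). Without untreated replicate 4, with its 1556 calls over all genes in place of 599, 4 were called higher and 2 lower.

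Of 14 genes of the NuRD complex, 11 were tested, and 1 was called, lower, against 2.67% of all tested genes. Rbbp4, a histone-binding subunit, fell from a mean of 85.5 CPM (SD 1.91) to 69.2 CPM (SD 5.45) over 5 animals each (log2 difference -0.30, SE 0.07, edgeR adjusted p = 0.0272), and was called in 3 of the 10 fits. The deacetylase subunits Hdac1 and Hdac2 had log2 fold changes of -0.13 ± 0.08 and 0.08 ± 0.06 (SE; edgeR adjusted p = 0.329 and 0.414). The median over the 11 was 0.08. Chd4, which encodes the remodeller that Nab2 binds, was not among the gene symbols and could not be analysed here.

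Other zinc-finger factors of GC-rich sites were listed as 14, of which 12 were tested and 2 called, both higher, against 2.41% of all tested genes. Klf9 rose from a mean of 95.6 CPM (SD 25.1) to 147 CPM (SD 20.4) over 5 animals each (log2 difference 0.62, SE 0.16, edgeR adjusted p = 0.0412). Sp2 rose by 0.41 (SE 0.11, edgeR adjusted p = 0.0445). They were called in 1 and 2 of the 10 fits. The median over the 12 was 0.21. The count was 3, all higher, without untreated replicate 4 (1556 of 11849 genes called).

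Targets of Egr2 in Schwann cell myelin and its partner Sox10 (together the Schwann cell targets below) were listed as 8, of which 7 were tested and none called (edgeR). At an unadjusted p under 0.05, 2 of the 7 passed, Sox10 and Prx (the latter named after its values were seen), in opposite directions (0.41 and -0.80 in log2), and 2887 of all 11791 tested genes passed. Sox10, the glial factor that acts with Egr2, had the smallest p (SE 0.12, edgeR adjusted p = 0.0688). Without untreated replicate 4, 2 were called, both higher, again among 1556 of 11849 genes. Schwann cell markers summed to 1.37 to 3.63 CPM in untreated and 1.13 to 2.18 CPM in RG2833 animals, so Egr2 was measured here in tissue with little Schwann cell RNA, and oligodendrocytes also express most of this list. The median over the 7 was 0.26, and in the fit with the ribosomal RNA share it was -0.89 with 0 of 7 above 0. With the excitatory neuron score it was -0.15 with 1 of 7 above 0.

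Of 14 other immediate-early genes, all were tested and 6 were called, all higher, against 2.41% of all tested genes. They were Arc, given above, Fos, Fosb and Junb of the AP-1 family, and Nr4a1 and Nr4a2, which encode orphan nuclear receptors. Nr4a2 rose from a mean of 43.4 CPM (SD 2.18) to 63.0 CPM (SD 14.3) over 5 animals each (log2 difference 0.54, SE 0.13, edgeR adjusted p = 0.0391). The others had log2 fold changes of 1.45 (Fos), 0.82 (Fosb), 0.57 (Junb) and 0.90 (Nr4a1), and edgeR adjusted p between 0.0251 and 0.0394. Fos and Fosb were called in 4 of the 10 fits that left out 1 animal, Junb and Nr4a2 in 3 and Nr4a1 in 2. The median over the 14 was 0.55, and without untreated replicate 4 it was 0.55 as well, with 6 called. Whether the Egr genes changed more than these was not tested.

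The calls within these lists depended on single animals, on the library measures and on the replicate block, and in some lists on the test, scaling and filter. DESeq2's Wald test called 1295 genes over all genes. Among them were 3 upstream regulators, 1 NuRD gene, 2 other zinc-finger factors, 1 Schwann cell target and 7 other immediate-early genes. Of the reported targets it called 4 higher and 2 lower. With library totals only or no filter, 1 of the other zinc-finger factors was called. When 1 animal was left out, the number called was 0 to 4 for the upstream regulators, 1 to 6 for the reported targets, 0 to 1 for NuRD, 0 to 3 for the other zinc-finger factors, 0 to 2 for the Schwann cell targets and 1 to 7 for the other immediate-early genes. The highest of these counts came without untreated replicate 4, except that for the other immediate-early genes it came without untreated replicate 5. For NuRD the same count of 1 was also reached without untreated replicate 5 or RG2833 replicate 4, and with all animals. The immediate-early count fell to 1 or 2 without untreated replicate 1 or 3 or any single RG2833 animal. With the ribosomal RNA share, the excitatory neuron score or 1 surrogate variable in the fit, 0 genes of each list were called. With the choroid plexus score, the calls were 2 of the other immediate-early genes, 2 of the reported targets, 1 upstream regulator, 1 Schwann cell target and 0 of the NuRD genes and other zinc-finger factors, in a fit that called 241 genes. With the replicate block, which called 180 genes, they were 3 of the other immediate-early genes, 1 reported target and 0 in each of the other 4 lists.

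**Figure D5:**
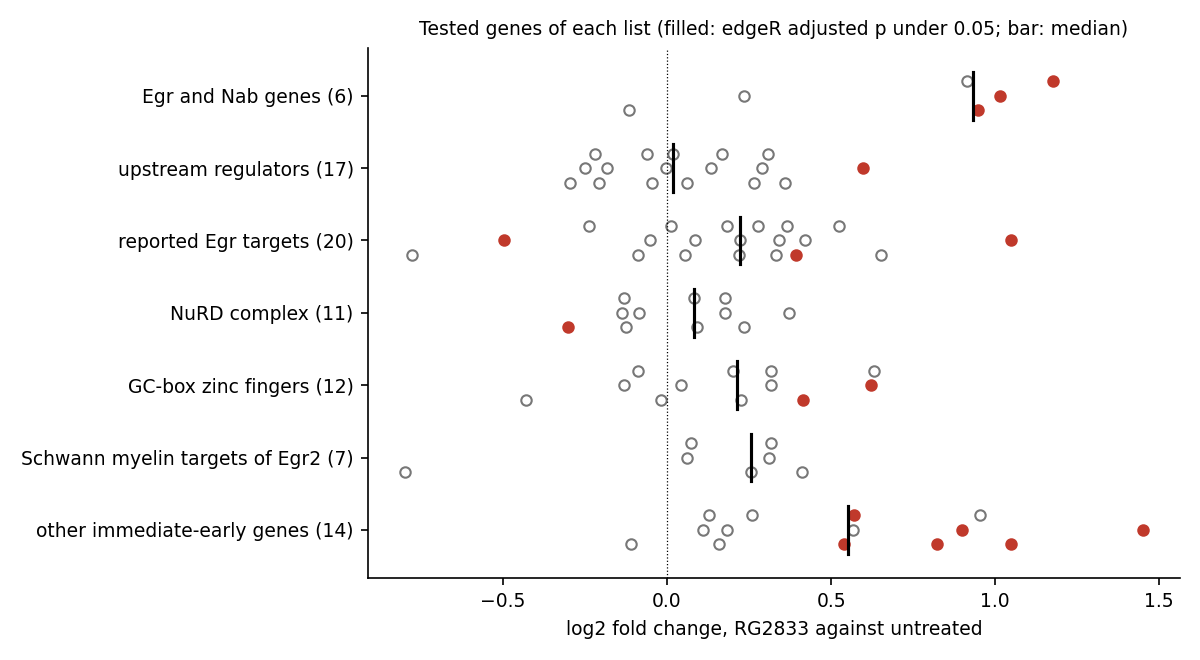
Log2 fold change of RG2833 against untreated (x axis) for each tested gene of the 6 members and of 6 lists (rows, number tested in brackets), with filled points for edgeR adjusted p under 0.05, open points for the rest and bars at the medians. Egr1, Egr3 and Egr4 lie near 1, and most genes of the lists of upstream regulators and of the NuRD complex lie within 0.4 of 0.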

How the data were processed

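The 6 genes, the gene lists and the tests were chosen with earlier results of these data known. Per the submitters' processing notes, the tools were bcl2fastq 2.17, Bowtie2 2.1.0, RSEM 1.2.15 and edgeR, with build rn6; the annotation and the use of strand in counting are not given in the sources used here. The authors deposited RSEM expected counts (estimated counts, 2 decimals, no normalization) and a signal in CPM after TMM scaling, which is printed here as levels. Columns were assigned by the sample title in their headings.

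Expected counts were rounded, low counts removed with filterByExpr, and groups compared with edgeR 4.0.16 (glmQLFit and glmQLFTest, TMM, no covariate) in R 4.3.3. The standard error is the fold change over the square root of F. Log2 CPM for ratios, scores and correlations used a prior count of 2. Correlations permuted animals within groups. The genes named were the members, the called genes of each list or else its smallest p, 8 regulators and targets fixed by name, and the 3 genes most like each member.

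Total counts ranged from 8764266 to 11311673, and 3 counts equalled 0.265 to 0.342 CPM, for counting error only. Pairs of libraries within a group differed by a chi-square of 4.60 to 36.3 per degree of freedom, above sampling noise. In simulated counts of this comparison the test recovered 178 of 200 genes changed by 1 log2 unit (15 false calls among 11726 tested) and 69 of 200 changed by 0.5 (7 false calls among 11730). The simulation gave each gene the same spread in both groups and drew genes independently, so these rates need not hold for the real libraries. In the GRCr8 gene table no other gene overlaps any of the 6, but the reads were counted on rn6, so this does not show that the counted genes were free of overlap. Expected counts of Nab1 and Nab2 include fractions (578.65 and 419.07 in untreated replicate 1), and those of the Egr genes are whole. Alternatives were DESeq2 1.42.0, limma 3.58.1 (voom on counts, trend on the deposited CPM signal), sva 3.50.0, other scalings, filters, covariates and animals left out; removal of ribosomal RNA loci and Bc1 was added after seeing the data.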

Additional observations from a re-analysis of the deposited data

Results flagged for a closer look

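Dixon's limit of 0.71 for 5 values was exceeded in 4 of 66 sets of 5 animals (the members, the genes named from the lists and the 8 ratios, each set being 1 treatment group), and chance gives about 3.3. For Egr1 the animal apart was untreated replicate 4, at 89.9 CPM, with the rest of its group between 34.2 and 49.2 CPM. For the Egr3 to Nab1 log2 ratio it was RG2833 replicate 5, at -0.0303, with the rest between -0.35 and -0.27. Rbbp4 stood at 78.9 CPM for RG2833 replicate 4, with the rest between 65.9 and 67.5 CPM. Syn1 stood at 1873 CPM for RG2833 replicate 1, with the rest between 1417 and 1523 CPM.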

How the results depend on the processing

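The 3 calls among the 6 genes (Egr1, Egr3 and Egr4) were also made under DESeq2 size factors, library totals only, both other filters, limma-voom, limma trend with both pseudocounts, the replicate block and without the ribosomal RNA loci and Bc1. DESeq2's Wald test called 4, and 2 were called with a choroid plexus covariate. With the ribosomal RNA share, the excitatory neuron score or 1 surrogate variable, 0 were called (at an unadjusted p under 0.05, edgeR gave 2, 3 and 4 of the 6, and 523, 679 and 1287 of all 11791 tested genes). No gene of the 6 changed direction in any of these fits or without any single animal. Leaving out 1 animal gave 2 to 4 calls among the 6 and 98 to 1556 over all genes, in place of 599. Over all genes DESeq2's Wald test called 1295, the choroid plexus score left 241, the excitatory neuron score and the surrogate variable 5 each, and the ribosomal RNA share 2. Egr2 could not be fitted under a mean count of at least 50. The replicate numbers name different animals, and the mean correlation of same-numbered animals' deviations was -0.0662, with 1 of 5 correlating best with its own number. With the replicate block 180 genes were called over all genes and the same number, 3, of the 6. With labels exchanged within same-numbered pairs, 0 of the 8 ratios passed in place of 7, a setting whose smallest possible p is above the threshold. The number of ratios that passed was 6 to 7 when 1 animal was left out, and 0 of the 15 correlations passed in any setting run. Egr2 had the fewest counts of the 6 genes, 18 to 87 per library.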
